A study of Mus musculus with 26 samples.

Results

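The genes described here encode the ligands, receptors, secreted antagonists and Smad proteins of transforming growth factor beta (TGF-beta), bone morphogenetic protein (BMP) and activin signalling, together with the *Id* genes. They were chosen by symbol from the 2 count tables and numbered 58 of the 55401 genes counted: 3 TGF-beta ligands, 10 BMP ligands, 10 growth and differentiation factors (*Gdf* genes), 5 activin and inhibin subunits, the protease gene *Bmp1*, 12 receptors, 5 secreted antagonists, 8 Smads and 4 *Id* genes. The 26 RNA-seq libraries are from mouse dorsal root ganglia (DRG), which hold the cell bodies of sensory neurons beside the spinal cord. The study asked how the aryl hydrocarbon receptor, a ligand-activated transcription factor encoded by *Ahr*, bears on the regrowth of axons after nerve injury. All ganglia were lumbar L4 to L6 and were dissociated in the morning hours of the light phase.

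Naive ganglia came from 3 control and 3 conditional knockout (cKO) mice, and injured ganglia from 3 control and 3 cKO mice 1 day after their sciatic nerve had been crushed. The cKO mice were *Ahr* f/f with Thy1-CRE(ERT2/EYFP), a tamoxifen-inducible recombinase under a promoter that is active in neurons, so other cells of the ganglion keep the gene. The control mice were *Ahr* fl/+ or fl/fl without the recombinase. Both genotypes of naive and injured mice had received tamoxifen at 100 mg/kg on 5 days at 28 weeks of age, 5 weeks before the ganglia were taken or the nerve was crushed. Semi-purified neurons, cultured for 24 h after seeding, came in 3 control (fl/fl) and 3 cKO libraries from female mice. Ganglia of the operated (ipsilateral) and the opposite (contralateral) side 1 day after sham surgery came from 2 control (f/+ and fl/fl) and 2 cKO male mice. For the neurons and the sham mice, neither the labels nor the design text gives the age or the tamoxifen treatment.

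Total counts were 20169388 to 23540375 in the 12 libraries of naive and injured ganglia, 25299938 to 88180611 in the 6 of neurons and 39306414 to 58751270 in the 8 of sham mice. In 2 libraries the transcripts went against the labelled sex: injured control replicate 3, labelled male, had 338 *Xist* counts and 2 counts of Y-linked genes, and injured cKO replicate 2, labelled female, had 0 and 1641. By their transcripts the naive libraries and the injured control libraries were thus all female, and the injured cKO libraries were 1 female and 2 males. *Ahr* did not separate the libraries labelled cKO from the controls: it was at 21.4 to 26.8 CPM (normalised read count relative to library size) in naive cKO and 18.0 to 22.8 CPM in naive control ganglia, and the libraries of the 2 genotypes overlapped in the other tissues too. The genotypes below are those of the labels. *Thy1*, whose promoter drives the recombinase, was at 1193 to 1335 CPM in naive cKO and 674 to 760 CPM in naive control ganglia. The 6 neuronal markers summed to 5081 to 6017 CPM in the naive and injured ganglia and to 3248 to 4084 CPM in the libraries labelled as neurons.

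Ligands of this family bind a pair of receptor types, and the type I receptor then phosphorylates receptor Smads inside the cell. TGF-beta and activin act mainly through Smad2 and Smad3, and BMPs through Smad1, Smad5 and Smad9. Smad4 is the partner of both sets, Smad6 and Smad7 inhibit them, and *Id1* to *Id3* are common targets of BMP signalling. In sensory neurons Smad1 is known for a part in axon growth, and activin for effects on pain-sensing neurons.

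The promoters of the receptor Smads that moved in opposite directions after crush, *Smad1* and *Smad9*, and of the 2 activin subunits that rose, *Inhba* and *Inhbb*, are printed for reference. They are RefSeq sequences of the mouse assembly GRCm38.p6, from 250 bases before to 50 bases after the start of transcription, written 5′ to 3′ on the gene's own strand.
Smad1 promoter, chr8:79399379-79399678, minus strand: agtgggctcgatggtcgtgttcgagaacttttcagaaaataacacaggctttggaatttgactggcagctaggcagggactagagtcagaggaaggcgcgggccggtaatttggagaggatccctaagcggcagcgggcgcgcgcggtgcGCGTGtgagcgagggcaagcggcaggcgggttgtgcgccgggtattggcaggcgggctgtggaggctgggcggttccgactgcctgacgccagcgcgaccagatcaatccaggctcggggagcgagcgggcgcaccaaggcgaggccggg
Smad9 promoter, chr3:54755332-54755631, plus strand: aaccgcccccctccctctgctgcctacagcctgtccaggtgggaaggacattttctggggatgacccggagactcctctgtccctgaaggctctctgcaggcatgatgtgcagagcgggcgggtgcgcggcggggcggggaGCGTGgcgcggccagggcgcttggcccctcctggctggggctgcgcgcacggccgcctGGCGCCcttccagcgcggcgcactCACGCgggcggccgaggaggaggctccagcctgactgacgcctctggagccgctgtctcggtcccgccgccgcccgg
Inhba promoter, chr13:16011601-16011900, plus strand: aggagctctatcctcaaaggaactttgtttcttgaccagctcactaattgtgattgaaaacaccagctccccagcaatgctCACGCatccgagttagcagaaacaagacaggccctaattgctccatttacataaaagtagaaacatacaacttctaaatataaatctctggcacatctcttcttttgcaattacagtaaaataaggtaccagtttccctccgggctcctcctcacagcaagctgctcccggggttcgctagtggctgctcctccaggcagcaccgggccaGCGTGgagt
Inhbb promoter, chr1:119422199-119422498, minus strand: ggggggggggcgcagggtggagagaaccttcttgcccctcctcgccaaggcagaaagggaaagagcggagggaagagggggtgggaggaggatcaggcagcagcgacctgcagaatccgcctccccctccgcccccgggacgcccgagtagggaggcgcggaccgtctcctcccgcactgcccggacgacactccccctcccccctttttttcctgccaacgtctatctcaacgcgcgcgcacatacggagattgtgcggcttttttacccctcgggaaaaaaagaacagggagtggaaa
Capitals mark matches on either strand to any of 5 motifs searched in all promoter windows: TGANTCA, bound by AP-1; TGACGTCA, the cAMP response element; GGCGCC, a site of BMP Smads; GTCTAGAC, the Smad palindrome; and GCGTG, the core bound by the aryl hydrocarbon receptor. The *Smad1* window held 1 GCGTG, at base 151 of the window, and the *Inhba* window held 2, at bases 82 and 292. The *Smad9* window held 2 GCGTG, at bases 142 and 224, and 1 GGCGCC at base 200. None of the 5 motifs was found in the *Inhbb* window. A window was available for 40 of the 58 genes (48 windows). GCGTG was in 20 of them (41.7%) against 32.4% of all 32851 windows, GGCGCC in 13 (27.1%) against 11.9%, GTCTAGAC in 1 (2.08%) against 0.213%, and neither TGANTCA (7.81% of all windows) nor TGACGTCA (1.79%) in any. Among the 16 windows of genes called after crush, 6 held GCGTG (37.5%) and 4 held GGCGCC (25%). A match describes letters and is not a binding site.

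In naive control ganglia 29 of the 58 genes averaged at least 10 CPM, 18 lay between 1 and 10 CPM and 11 were below 1 CPM. Levels of different genes were compared as CPM per kilobase of exon. On that scale *Id3* was highest, at 38.9, followed by *Smad9* (18.8), the BMP type II receptor gene *Bmpr2* (18.6), *Id4* (17.9), *Bmpr1a* (17.1) and the activin type I receptor gene *Acvr1b* (16.9). The most abundant ligand gene was *Gdf11*, at 12.4 CPM per kilobase, and among the TGF-beta ligands *Tgfb3* stood at 8.17. *Bmp10*, *Gdf2*, *Gdf6*, *Inhbc* and *Inhbe* were at or near 0 in every tissue and were tested nowhere. After the filter on low counts 51 genes were tested in the naive and injured ganglia, 52 in the neurons and 51 in the sham ganglia. Naive control replicate 1 stood apart for several BMP ligands: *Bmp4* was at 19.7 CPM there against 4.17 to 6.20 CPM in the other 5 naive libraries, and *Bmp6* (33.1 CPM) and *Bmp7* (27.1 CPM) were also highest there. The same library had the highest sums of neutrophil markers (567 CPM against 91.4 to 295 CPM in the other 5) and macrophage markers (533 CPM against 227 to 366 CPM), whose part in these levels was not tested.

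In control mice 1 day after sciatic crush, 8 of the 51 tested genes were called higher and 7 lower at an adjusted p under 0.05 (edgeR quasi-likelihood test, Benjamini-Hochberg adjustment over all genes tested). These 15 genes are 29.4% of those tested, beside 21.6% of all 21261 genes tested, 12.9% higher and 8.73% lower. In cKO mice 9 were called higher and 7 lower, 31.4% of those tested beside 18.6% of all genes, 10.7% higher and 7.89% lower. Both shares stood above the background, a difference that was not tested. In both genotypes 14 genes were called, each in the same direction. The matching count over all genes was not made, so this overlap has no background beside it. The largest rise was that of follistatin (*Fst*), an antagonist that binds activin, and it was accompanied by both activin beta subunits and by the receptor genes *Acvr1* and *Acvr1c*. *Smad1* rose while *Smad9* fell. Called with a change of at least 2-fold were 6 genes in control and 4 in cKO mice, beside 2.96% and 2.72% of all genes tested. At an unadjusted p under 0.05 there were 21 and 18, beside 33.8% and 30.8%. The median log2 fold change of the 51 genes was -0.08 in control and -0.01 in cKO mice, beside -0.02 and -0.00 over all genes tested.

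**Figure D1:**
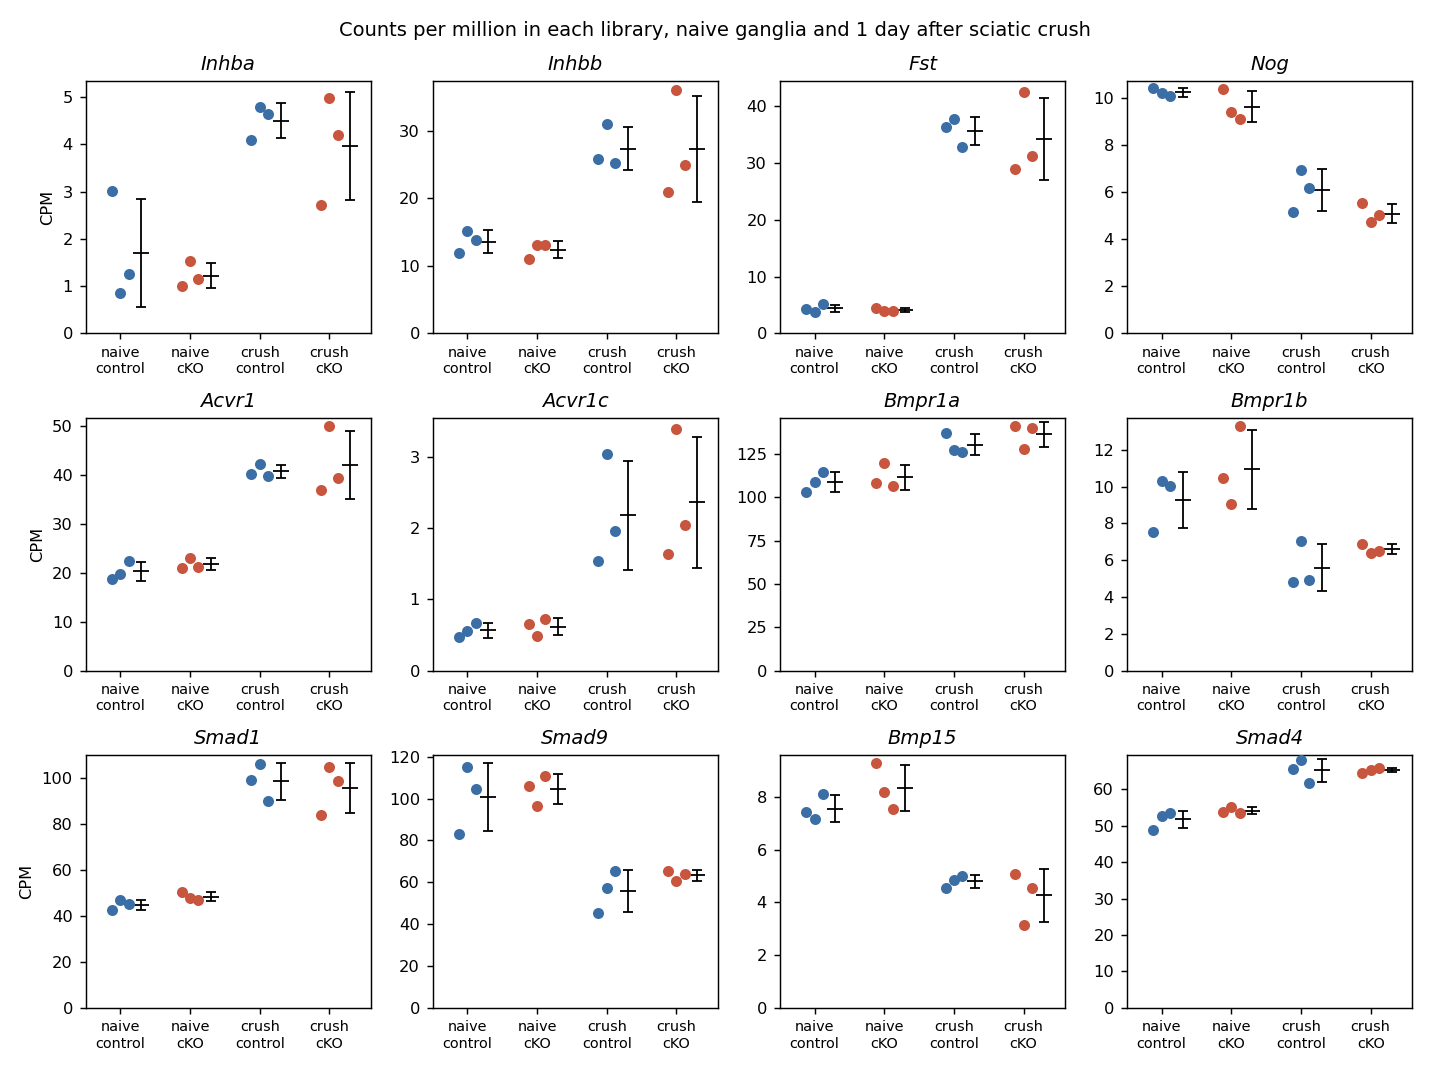
CPM of 12 genes called after crush, with a point for each library of naive and injured ganglia (control blue, cKO red, 3 per group) and the mean ± SD as a black bar to the right. *Fst* lies between 3.83 and 5.11 in the naive libraries and between 28.9 and 42.5 after crush, and *Smad1* and *Smad9* move in opposite directions.

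Among the ligands, the activin subunits rose and the remaining called genes fell. *Inhba*, which encodes the beta A subunit of activin, was at 3.00, 0.851 and 1.27 CPM in naive control ganglia and at 4.08, 4.78 and 4.64 CPM after crush. In cKO mice it was at 1.00, 1.53 and 1.14 CPM in naive ganglia and at 2.71, 4.98 and 4.19 CPM after crush. All injured libraries lay above the naive libraries of their genotype, with a log2 fold change of 1.41 ± 0.35 (SE; adjusted p = 0.014) in control and 1.67 ± 0.37 (adjusted p = 0.0079) in cKO mice. The control call was lost without naive control replicate 3 (log2 fold change 1.22, adjusted p = 0.059). Naive control replicate 1, the highest of its group, set the size: without it the control value was 2.08 (adjusted p = 0.00050). *Inhba* shares 6240 bases with the antisense gene *Gm48444*, counted at 81.5% of its own counts and moved by 1.45 and 1.71, and lies over a second antisense gene, *B230303A05Rik*, with 25% of its counts (0.47 and 0.50, not called), and the counts do not show whether reads were assigned by strand. *Inhbb*, the beta B subunit, was at 11.8, 15.1 and 13.9 CPM in naive control and at 25.8, 30.9 and 25.2 CPM in injured control ganglia. In cKO mice its values were 11.02, 13.1 and 13.2 CPM before and 20.9, 36.1 and 25.0 CPM after crush. The groups did not overlap, and the log2 fold change was 1.01 ± 0.17 (adjusted p = 0.0015) in control and 1.12 ± 0.17 (adjusted p = 0.00089) in cKO mice. The inhibin alpha gene *Inha*, whose product forms inhibins with the same beta subunits, was not called (log2 fold change -0.25 and -0.19).

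*Bmp15*, an X-linked ligand gene best known from the oocyte, fell in both genotypes. It was at 7.42, 7.15 and 8.11 CPM in naive control and at 4.54, 4.87 and 4.99 CPM in injured control ganglia (log2 fold change -0.65 ± 0.15, adjusted p = 0.0077). In cKO ganglia it went from 9.28, 8.21 and 7.53 CPM to 5.08, 3.15 and 4.56 CPM (-0.97 ± 0.15, adjusted p = 0.00074). No injured library reached the naive level of its genotype. *Bmp5* was at 9.77, 7.49 and 11.6 CPM in naive and at 6.71, 3.44 and 5.44 CPM in injured control ganglia (-0.88 ± 0.22, adjusted p = 0.013). That call was lost without naive control replicate 3 (-0.73, adjusted p = 0.057), and in cKO mice *Bmp5* was not called (-0.45 ± 0.22, adjusted p = 0.19). *Bmp5* overlaps the antisense gene *Gm26903*, which had 49.9% of its counts and log2 fold changes of -0.48 and -0.37, neither of them called.

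*Gdf1*, a ligand gene of the nodal type, was at 8.27, 11.7 and 9.89 CPM in naive and at 5.76, 5.89 and 6.42 CPM in injured control ganglia (-0.72 ± 0.14, adjusted p = 0.0026). Its values in cKO mice were 10.97, 9.52 and 9.39 CPM before and 5.73, 5.77 and 7.06 CPM after crush (-0.70 ± 0.14, adjusted p = 0.0036). Since *Gdf1* lies wholly within the ceramide synthase gene *Cers1* on the same strand, which had 246% of its counts and moved by -0.73 and -0.63, reads of the 2 genes may not be separable. *Tgfb3* fell least among the called ligands, from 30.7, 24.6 and 27.6 CPM to 22.2, 20.2 and 24.5 CPM in control mice (-0.30 ± 0.10, adjusted p = 0.049). In cKO mice it was at 24.1, 29.4 and 25.7 CPM before and 21.3, 18.8 and 20.9 CPM after crush (-0.39 ± 0.10, adjusted p = 0.018), a call lost without injured cKO replicate 2 (adjusted p = 0.070) or naive cKO replicate 2 (0.059). The control call for *Tgfb3* did not survive the removal of 4 of the 6 libraries compared, each taken out in turn (adjusted p 0.10 to 0.17), and the gene overlaps *Ttll5* on the other strand, which had 348% of its counts. *Tgfb1* and *Tgfb2* were not called in either genotype (log2 fold changes from -0.19 to -0.12), nor were *Bmp2*, *Bmp3*, *Bmp4*, *Bmp6*, *Bmp7*, *Bmp8a* and *Bmp8b*. Of the *Gdf* genes, *Gdf3*, *Gdf7*, *Gdf9*, *Gdf10* and *Gdf11* were not called either. *Bmp1*, which encodes a procollagen protease and not a ligand, was at 13.7, 10.8 and 14.0 CPM before and 17.1, 16.5 and 18.3 CPM after crush in control mice (0.43 ± 0.14, adjusted p = 0.052). In cKO mice it went from 8.75, 12.1 and 12.4 CPM to 13.2, 18.1 and 15.5 CPM and was called (0.47 ± 0.15, adjusted p = 0.043), but without naive cKO replicate 1, naive cKO replicate 2, injured cKO replicate 2 or injured cKO replicate 3 it was not (adjusted p 0.057 to 0.18).

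Of the 12 receptor genes, *Acvr1*, *Acvr1c* and *Bmpr1a* rose and *Bmpr1b* fell, in both genotypes. *Acvr1* encodes ALK2, a type I receptor for BMPs and activins, and lies at chr2:58388644-58567157 on the minus strand, beside *Acvr1c* at chr2:58267453-58357895 on the same strand (GENCODE M21 on GRCm38). It was at 18.8, 19.7 and 22.5 CPM in naive and at 40.2, 42.3 and 39.9 CPM in injured control ganglia. The cKO values were 21.0, 23.1 and 21.1 CPM before and 36.9, 50.1 and 39.4 CPM after crush. The level doubled in each genotype (ratio of means 2.01 and 1.94), with a log2 fold change of 1.01 ± 0.10 (adjusted p = 3.9e-05) and 0.94 ± 0.10 (adjusted p = 7.7e-05). *Acvr1c*, which encodes the nodal and activin receptor ALK7, stayed low throughout: it was at 0.472, 0.553 and 0.673 CPM in naive and 1.54, 3.04 and 1.96 CPM in injured control ganglia. In cKO mice it was at 0.653, 0.480 and 0.719 CPM before and 1.64, 3.40 and 2.05 CPM after crush. These values rest on 11 to 69 counts per library, and the log2 fold change was 1.93 ± 0.34 (adjusted p = 0.0016) in control and 1.90 ± 0.33 (adjusted p = 0.0019) in cKO mice.

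*Bmpr1a* and *Bmpr1b* encode further BMP type I receptors and moved in opposite directions. *Bmpr1a* was at 103, 109 and 115 CPM in naive and at 137, 128 and 126 CPM in injured control ganglia (0.26 ± 0.06, adjusted p = 0.011). In cKO mice it was at 109, 119.9 and 107 CPM before and 141, 128 and 140.3 CPM after crush (0.28 ± 0.06, adjusted p = 0.0092). *Bmpr1b* fell. Its naive control values of 7.54, 10.3 and 10.01 CPM compared with 4.81, 7.06 and 4.91 CPM after crush (-0.73 ± 0.18, adjusted p = 0.012). The cKO values were 10.5, 9.04 and 13.3 CPM before and 6.89, 6.41 and 6.53 CPM after crush (-0.74 ± 0.18, adjusted p = 0.011). Without injured control replicate 1 neither control call held (adjusted p 0.063 for *Bmpr1a* and 0.059 for *Bmpr1b*). In cKO mice both calls were lost without naive cKO replicate 3 (adjusted p 0.062 and 0.055), and that of *Bmpr1a* also without naive cKO replicate 1 (0.052). The other 8 receptor genes, among them *Tgfbr1*, *Tgfbr2*, *Tgfbr3* and *Bmpr2*, were not called, with log2 fold changes between -0.16 and 0.19.

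**Figure D2:**
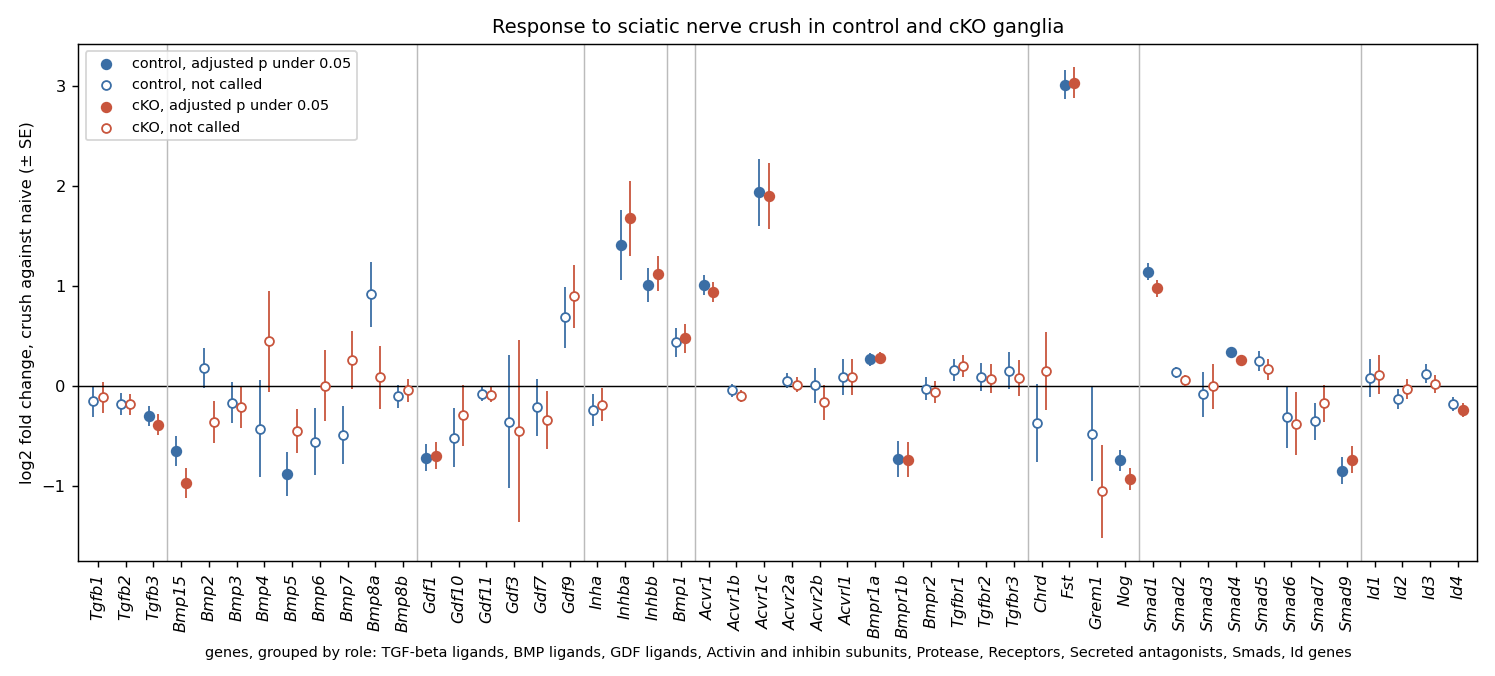
Log2 fold change of crush against naive ganglia with its SE for 50 of the tested genes, in control (blue) and cKO mice (red), grouped by role between the vertical lines; filled points passed an adjusted p of 0.05. *Fst* is the highest point at 3.01 and 3.03, and the TGF-beta receptors lie near 0.

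Among the antagonists, *Fst* rose and *Nog* fell. *Fst* is at chr13:114452290-114458951 on the minus strand. It was at 4.29, 3.83 and 5.11 CPM in naive and at 36.2, 37.7 and 32.8 CPM in injured control ganglia, an 8.07-fold difference of the means. In cKO mice the values were 4.53, 3.93 and 3.93 CPM before and 28.9, 42.5 and 31.2 CPM after crush, an 8.28-fold difference. Every injured library exceeded every naive one by a wide margin, with a log2 fold change of 3.01 ± 0.15 (adjusted p = 3.1e-07) in control and 3.03 ± 0.15 (adjusted p = 4.1e-07) in cKO mice. *Nog*, which encodes the BMP antagonist noggin, was at 10.4, 10.2 and 10.1 CPM in naive and 5.17, 6.92 and 6.15 CPM in injured control ganglia (-0.75 ± 0.11, adjusted p = 0.00043). In cKO mice it fell from 10.4, 9.38 and 9.09 CPM to 5.51, 4.73 and 5.01 CPM (-0.93 ± 0.11, adjusted p = 0.00013). The BMP antagonist genes *Grem1* and *Chrd* were not called and were below 2 CPM in all 12 libraries.

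Of the Smads, *Smad1* and *Smad4* rose and *Smad9* fell. *Smad1* was at 42.5, 46.8 and 44.999 CPM in naive and at 99.3, 106 and 89.99 CPM in injured control ganglia (1.14 ± 0.08, adjusted p = 4.5e-06). Its cKO values were 50.6, 47.6 and 46.8 CPM before and 83.7, 105 and 98.6 CPM after crush (0.97 ± 0.08, adjusted p = 1.6e-05). *Smad9*, which encodes the receptor Smad often called Smad8, was at 82.9, 115 and 105 CPM in naive and 45.4, 57.0 and 65.1 CPM in injured control ganglia (-0.85 ± 0.13, adjusted p = 0.00085). For cKO mice the values were 106, 96.6 and 111 CPM before and 65.3, 60.6 and 63.8 CPM after crush (-0.74 ± 0.13, adjusted p = 0.0023). Naive and injured libraries of *Smad1* and *Smad9* did not overlap. The third BMP Smad, *Smad5*, was not called (0.25 ± 0.10, adjusted p = 0.10, and 0.16 ± 0.10, adjusted p = 0.31). *Smad4* was at 49.0, 52.8 and 53.5 CPM in naive and 65.6, 68.2 and 61.9 CPM in injured control ganglia (0.34 ± 0.05, adjusted p = 0.00054). The cKO libraries were at 53.9, 55.3 and 53.4 CPM before and 64.6, 65.5 and 65.8 CPM after crush (0.25 ± 0.05, adjusted p = 0.0035). *Smad2* and *Smad3*, the Smads of the TGF-beta and activin branch, and the inhibitory *Smad6* and *Smad7* were not called in either genotype.

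The ratio of *Smad1* to *Smad9*, in CPM per kilobase of exon, was computed after the values had been seen and carries no test. It lay between 0.349 and 0.440 in the 6 naive libraries and between 1.10 and 1.87 in the 6 injured libraries. In the sham mice it was 0.430 to 0.564 on the opposite side and 0.563 to 0.753 on the operated side, and in the cultured neurons 4.54 to 7.54. The injured ganglia thus lay above all sham ganglia and below all neuron libraries.

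**Figure D3:**
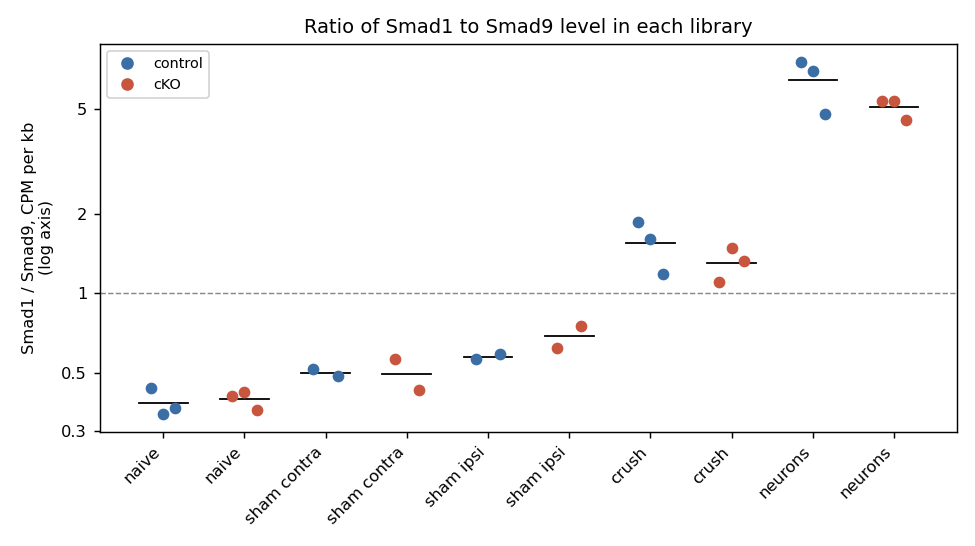
Ratio of *Smad1* to *Smad9* (CPM per kilobase of exon, log axis) in each of the 26 libraries by group, with control in blue, cKO in red and group means as black lines. *Smad9* exceeds *Smad1* in the naive and sham ganglia (ratio at most 0.753), and *Smad1* exceeds *Smad9* in all injured (1.10 or more) and neuron libraries.

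The BMP target genes among the *Id* genes did not follow *Smad1*. *Id1*, *Id2* and *Id3* were not called, with log2 fold changes between -0.14 and 0.12 in the 2 genotypes. *Id4* was at 75.8, 78.1 and 74.6 CPM in naive and 59.4, 63.6 and 71.7 CPM in injured cKO ganglia (-0.25 ± 0.07, adjusted p = 0.035), but in control mice it was not called (-0.18 ± 0.07, adjusted p = 0.099). The cKO call was lost when any of the 6 libraries was left out except injured cKO replicate 3 (adjusted p 0.066 to 0.095). *Id4* overlaps the antisense gene *A330033J07Rik*, which had 19.7% of its counts and log2 fold changes of -0.27 and -0.28, neither of them called.

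Groups did not overlap for 20 of the 51 genes in control and 21 in cKO mice, beside 38.4% and 36.3% of all genes tested, so the count is near the background. In control mice, injured replicate 2 held the highest injured value of 7 of the 8 genes called higher, beside 53.8% of all genes called higher. Injured cKO replicate 2 did so for 7 of the 9 in cKO mice, beside 68.8%. The latter is a library whose transcripts go against its labelled sex. With the sex given by the transcripts as a covariate, 7 of the 16 genes stayed called in cKO mice (*Acvr1*, *Bmp15*, *Fst*, *Gdf1*, *Id4*, *Nog* and *Smad1*), 43.8% beside the 33.4% of all called genes that stayed called. These 7 are 13.7% of the 51 tested, beside 6.65% of all genes tested. The other 9 kept their direction and lost the call. Of these, the log2 fold change was 0.33 for *Bmpr1a*, 0.24 for *Smad4*, -0.69 for *Smad9*, -0.68 for *Bmpr1b* and -0.32 for *Tgfb3*, within 0.1 of the values without the covariate. It was smaller for *Acvr1c* (1.39), *Inhba* (1.14), *Inhbb* (0.74) and *Bmp1* (0.24). In control mice the same covariate left 14 of 15, all but *Tgfb3* (adjusted p = 0.056), and *Bmp1* was called in addition. The share of all called genes that stayed called was not counted for control mice.

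Markers of other cells were summed per library beside these results. In control mice the 5 mural cell markers summed to 378 to 401 CPM after crush against 286 to 334 CPM in naive ganglia, the 3 T cell markers to 0.536 to 0.847 CPM against 1.35 to 1.63 CPM, and the 3 oligodendrocyte markers to 0.848 to 2.54 CPM against 0.554 to 0.681 CPM. In cKO mice the 3 neutrophil markers summed to 46.4 to 105 CPM after crush against 153 to 295 CPM. Their part in the results was not tested. The sums of neuron, satellite glia, Schwann cell, macrophage, endothelial and fibroblast markers overlapped between naive and injured libraries in both genotypes. In bulk ganglia, fewer cells of a type and less RNA per cell cannot be told apart.

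A wider list of 56 genes of these pathways had 47 tested. After crush 7 were called higher and 4 lower in control mice (23.4%) and 5 higher and 4 lower in cKO mice (19.1%), close to the shares over all genes given above. *Mstn*, which encodes the follistatin-bound ligand myostatin, went from 0.763 to 3.98 CPM in control mice (2.38 ± 0.20, adjusted p = 1.2e-05) and rose by 2.15 ± 0.20 in cKO mice (adjusted p = 2.7e-05). Genes called higher also included the Smad corepressor gene *Tgif1* (0.84 and 1.03), the BMP co-receptor gene *Rgmb* (0.48 and 0.33) and the integrin gene *Itgav* (0.41 and 0.45) in both genotypes, and *Bmper* (0.43) and *Skil* (0.44) in control mice. Those called lower in both genotypes were *Bambi*, which encodes a pseudoreceptor (-0.59 and -0.60), *Tll1* (-0.61 and -0.38), *Ldlrad4* (-0.22 and -0.20) and *Zfyve9* (-0.21 and -0.23).

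The genotype comparisons asked whether the labelled loss of *Ahr* from neurons changed these genes. None of the tested genes was called between cKO and control in naive ganglia (0.00941% of all genes called), injured ganglia (0.00941%), cultured neurons (0%), the sham side (0.00451%) or the side opposite sham (0%) by edgeR or by DESeq2. At an unadjusted p under 0.05 there were 0 of 51, 2 of 51, 7 of 52, 5 of 51 and 1 of 51, beside 5.79%, 2.72%, 8%, 7.59% and 5.23% of all genes. Groups did not overlap for 2, 2, 13, 17 and 16 genes, beside 12.1%, 8.73%, 14.7%, 35.8% and 38.3% of all genes. The response to crush was also compared between genotypes directly: the interaction called none of the 51 genes (0% of all genes) and none was under an unadjusted p of 0.05 (2.95% of all genes), with DESeq2 likewise at 0 calls. For *Fst* the difference of the 2 responses was 0.02 ± 0.21, for *Smad1* -0.17 ± 0.12 and for *Inhbb* 0.11 ± 0.24 on the log2 scale. The 2 crush comparisons share no libraries.

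The smallest adjusted p of any genotype comparison was that of *Fst* in the neurons (0.504), followed by *Gdf10* on the sham side (0.5285), which was called there without the filter on low counts (log2 fold change 0.93, adjusted p = 0.026). *Fst* was at 15.2, 15.9 and 11.1 CPM in cKO and 10.8, 8.54 and 7.57 CPM in control neurons (0.66 ± 0.18, unadjusted p = 0.0061, adjusted p = 0.50), and the libraries did not overlap. *Inhba* was at 52.8, 52.4 and 47.2 CPM in cKO and 42.6, 33.7 and 23.4 CPM in control neurons (0.61 ± 0.19, adjusted p = 0.55), also without overlap. Others with an unadjusted p under 0.05 included *Bmp3* (1.28), *Acvr1c* (0.66), *Bmpr1b* (0.55) and *Bmp5* (-0.51), given as log2 fold changes. In injured ganglia the 2 genes were *Bmp2* (-0.48) and *Nog* (-0.26). On the sham side they included *Gdf10* (0.95), *Acvr1c* (0.95), *Acvr2b* (0.49) and *Smad5* (0.27), and the gene on the opposite side was *Bmpr2* (0.24).

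Sham surgery exposes the nerve without crushing it, and the operated side was compared with the opposite side over both genotypes. The main test treated the 2 sides of a mouse as separate samples, so its SE and p-values ignore that pairing. With the mouse as a block edgeR called none of these genes either. None of the 51 genes was called by edgeR (0.00451% of all genes), 8 were under an unadjusted p of 0.05 (7.56% of all genes), and DESeq2 called 1, *Fst*. For 3 genes, *Fst*, *Smad6* and *Smad7*, the 2 sides did not overlap over the mice, beside 4.12% of all genes. *Fst* was at 7.41 and 8.80 CPM on the operated side and 3.44 and 2.73 CPM on the opposite side of the control mice, and at 4.86 and 15.8 CPM against 2.94 and 4.18 CPM in the cKO mice. It was higher on the operated side in 4 of 4 mice, by 1.65-fold to 3.78-fold, with a log2 fold change of 1.49 ± 0.34 (unadjusted p = 0.0026, adjusted p = 0.345 by edgeR). DESeq2 gave 1.48 (adjusted p = 6.6e-05), and edgeR without the filter on low counts also called *Fst* (1.48, adjusted p = 3.5e-05). It was not called by edgeR with RLE factors, with at least 10 counts required in every library, or with the mouse as a block. Over the alternatives its log2 fold change lay between 1.08 and 1.67. *Inhba* was also higher in 4 of 4 mice, by 1.41-fold to 2.30-fold (0.92 ± 0.23, adjusted p = 0.42). *Smad1* differed by 1.01-fold to 1.31-fold (0.19 ± 0.07, adjusted p = 0.60), with all operated sides between 46.4 and 51.8 CPM, well below the 83.7 to 106 CPM of the injured ganglia. The remaining genes at this unadjusted level were *Smad6* (0.52), *Smad7* (0.25), *Nog* (0.24), *Acvrl1* (0.19) and *Bmp15* (-0.40). *Inhbb* was higher on the operated side in 3 of 4 mice, with 7.03 CPM against 9.84 CPM in sham cKO replicate 1. The library with the highest *Fst*, the operated side of sham cKO replicate 2, was also the one with the highest sum of the 3 skeletal muscle markers, 1226 CPM against 2.31 to 291 CPM in the other 7 sham libraries. In the cKO mice neuron markers summed to 7376 to 7389 CPM on the operated and 8253 to 8281 CPM on the opposite side, and Schwann cell markers to 1941 to 2136 CPM and 2572 to 3157 CPM. In the control mice the mural, neutrophil and skeletal muscle sums were lower on the operated side without overlap. The part of these cells in the sham values was not tested. Sham and crush ganglia are in different tables, and no test sets them against each other.

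**Figure D4:**
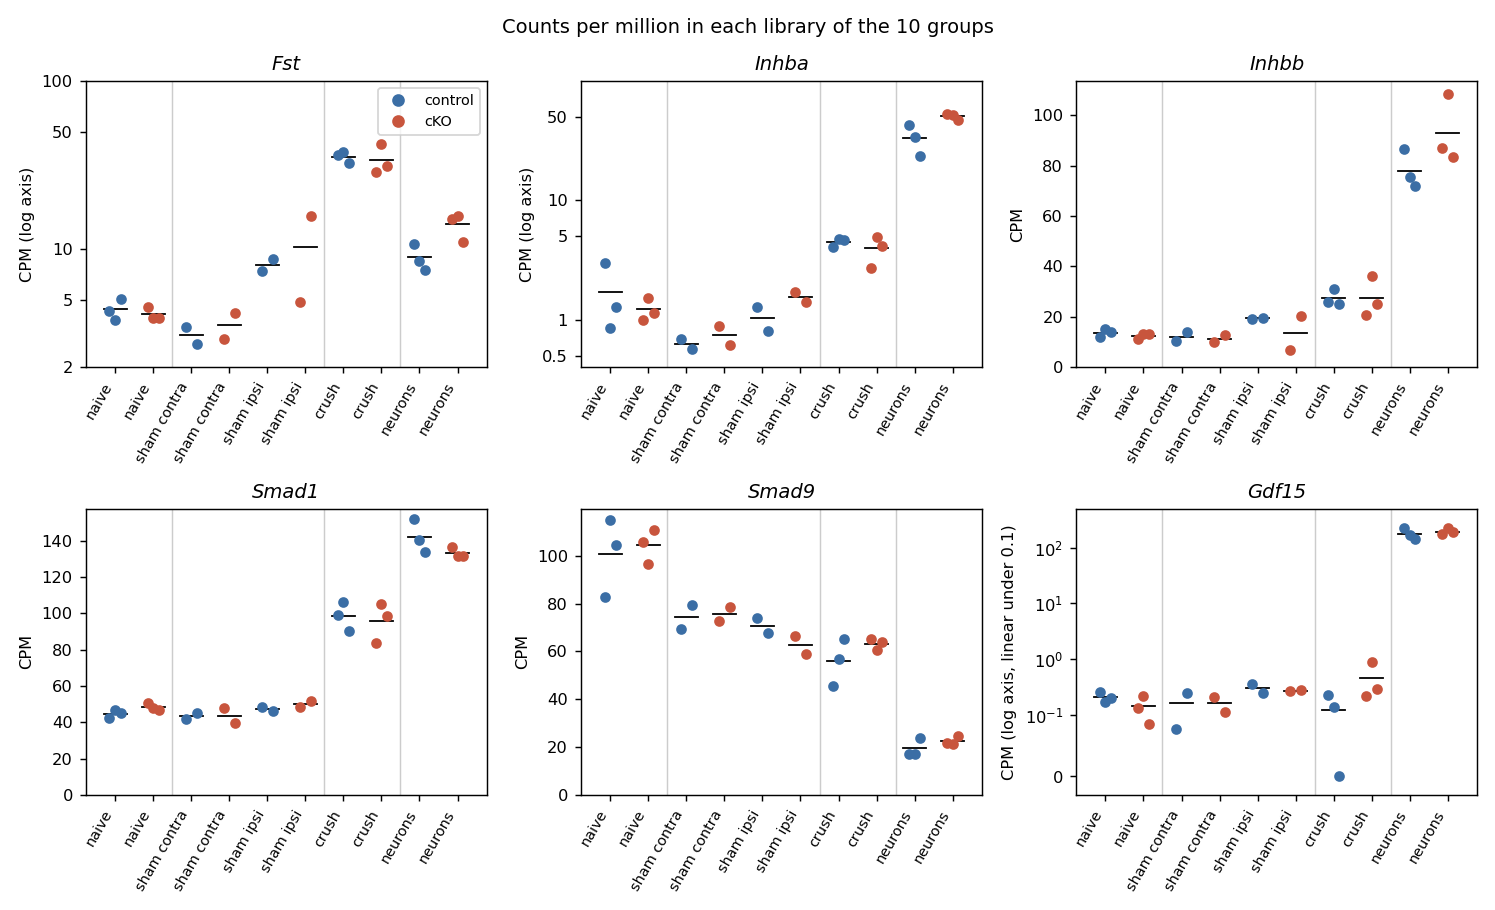
CPM of 6 genes in each of the 26 libraries by group, with control in blue, cKO in red and group means as black lines (log axes for *Fst*, *Inhba* and *Gdf15*). *Fst* peaks in the injured ganglia (28.9 to 42.5), whereas *Inhba*, *Inhbb* and *Smad1* are highest and *Smad9* lowest in the cultured neurons, and *Gdf15* exceeds 1 only there.

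Cultured control neurons were set against naive control ganglia, a comparison in which tissue, dissociation, purification, culture, depth and table differ together and cannot be told apart. Of 51 tested genes, 24 were called higher and 21 lower (88.2%), beside 80% of all genes tested, 40.1% higher and 39.9% lower, so a call is the usual state here. Of the 45 genes, 4 (*Gdf15*, *Grem1*, *Bmp3* and *Bmp15*) were under the filter's level in at least 1 library of the lower group. The median size of the log2 fold change was 1.39 over the 51 genes and 0.99 over all genes tested. Groups did not overlap for 45 of the 51, beside 82.9% of all genes, 45 had an unadjusted p under 0.05, beside 81.3%, and 32 were called at 2-fold or more, beside 49.5%. *Gdf15* is the gene of a stress-induced ligand that acts on the brainstem receptor GFRAL. It was at 0.257, 0.170 and 0.198 CPM in naive ganglia, on 4 to 6 counts, and at 221, 167 and 143 CPM in the control neurons. It passed the filter on low counts only through the neurons, where it is high, so its test is not given. The cKO neurons were at 174, 223 and 187 CPM, and all 20 ganglion libraries, crushed ones included, were below 1 CPM.

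Both activin beta subunits were higher in culture than in any ganglion library. *Inhbb* was at 86.6, 75.7 and 72.0 CPM in control neurons (2.52 ± 0.12, adjusted p = 6.4e-07). *Inhba* was at 42.6, 33.7 and 23.4 CPM there (4.29 ± 0.41, adjusted p = 2.5e-05), while its antisense neighbours *Gm48444* and *B230303A05Rik* rose by 4.21 and 3.01. Without naive control replicate 1 the value of *Inhba* was 4.92 (adjusted p = 1.7e-05), and that of *Bmp4* moved from -2.63 to -1.73 (adjusted p = 0.00068). *Fst* was higher than in naive ganglia, at 10.8, 8.54 and 7.57 CPM (1.02 ± 0.18, adjusted p = 0.00097), and below every injured ganglion. *Smad1* was at 152, 141 and 134 CPM (1.67 ± 0.08, adjusted p = 8.1e-07) and *Smad9* at 17.3, 17.3 and 24.0 CPM (-2.36 ± 0.17, adjusted p = 5.0e-06). The culture and the control crush comparisons share the 3 naive control libraries. *Smad4* was at 117, 116 and 115 CPM (1.17 ± 0.07, adjusted p = 2.2e-06). *Smad3* was at 58.7, 56.8 and 49.4 CPM against 14.1, 8.04 and 12.6 CPM in naive ganglia (2.25 ± 0.19, adjusted p = 1.3e-05). In all, 6 of the 8 Smads were called higher and *Smad9* lower, whereas *Smad6* was not called.

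Of the 12 receptor genes 5 were higher and 5 lower, but against the contralateral ganglia of the sham control mice 9 were higher and 2 lower (*Acvr1b* and *Bmpr1b*), so the split depends on the ganglia used. *Acvr1* was at 56.6, 59.7 and 55.4 CPM in control neurons (1.497 ± 0.09, adjusted p = 1.9e-06). *Acvrl1*, which encodes the endothelial receptor ALK1, was at 75.1, 73.3 and 54.2 CPM against 19.7, 12.2 and 15.8 CPM (2.09 ± 0.19, adjusted p = 2.1e-05). *Bmpr1b* was at 1.59, 1.44 and 1.36 CPM (-2.67 ± 0.18, adjusted p = 3.2e-06). The 6 endothelial markers summed to 1165 to 1592 CPM in the control neurons and 103 to 138 CPM in naive control ganglia, none of them at 0, and their part in the level of *Acvrl1* or any other gene was not tested. The protease gene *Bmp1* was at 36.2, 48.4 and 37.0 CPM in the control neurons (1.67 ± 0.15, adjusted p = 1.7e-05).

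Of the 9 BMP ligand genes tested, *Bmp4*, *Bmp5* and *Bmp7* were called lower and *Bmp2*, *Bmp8a* and *Bmp8b* higher in culture, *Bmp6* was not called, and *Bmp3* and *Bmp15* are given by level only. *Bmp8b* shares 4980 bases with *Ppie* on the other strand, which had 221% of its counts and rose by 1.83 here (adjusted p = 3.2e-06), more than the 0.97 of *Bmp8b* itself. *Bmp15* was at 0.357, 0.434 and 0.466 CPM in the control neurons, on 9 to 38 counts, against 7.42, 7.15 and 8.11 CPM in naive control ganglia. *Bmp3* was at 0.0793, 0.240 and 0.299 CPM, on 2 to 21 counts, against 5.62, 5.11 and 6.49 CPM. Both passed the filter only through the ganglia, where they are high, so their tests are not given. *Bmp2* went the other way (2.66 ± 0.26, adjusted p = 3.0e-05). Among the *Id* genes *Id4* was at 8.32, 5.84 and 5.71 CPM against 63.5, 74.3 and 68.4 CPM (-3.40 ± 0.16, adjusted p = 6.1e-07). *Id1* was called higher (means of 23.3 against 14.4 CPM) and *Id3* lower (52.7 against 69.7 CPM), while *Id2* was not called. *Gdf11*, a ligand close to myostatin, was at 14.5, 17.2 and 16.3 CPM against 45.4, 52.8 and 53.5 CPM (-1.65 ± 0.10, adjusted p = 2.1e-06). *Tgfb3* (-1.06 ± 0.11, adjusted p = 3.2e-05) and *Gdf1* (-1.60 ± 0.16, adjusted p = 3.3e-05) were also lower. The other TGF-beta ligand genes were called higher. *Tgfb1* averaged 44.9 CPM in control neurons against 10.2 CPM in naive control ganglia, and *Tgfb2* 16.1 against 12.3 CPM. The call of *Tgfb2* was lost with DESeq2. Satellite glia markers summed to 51.0 to 59.7 CPM in control neurons and 311 to 318 CPM in naive control ganglia, and Schwann cell markers to 614 to 695 CPM and 2235 to 2864 CPM. Sums were also lower in the control neurons, without overlap, for fibroblast (160 to 336 CPM against 377 to 646 CPM), macrophage (189 to 224 against 227 to 533 CPM), neutrophil (9.05 to 56.6 against 91.4 to 567 CPM), blood, T cell and skeletal muscle markers, and higher for mural cell (356 to 371 against 286 to 334 CPM) and oligodendrocyte markers. The part of these cells in the levels was not tested.

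**Figure D5:**
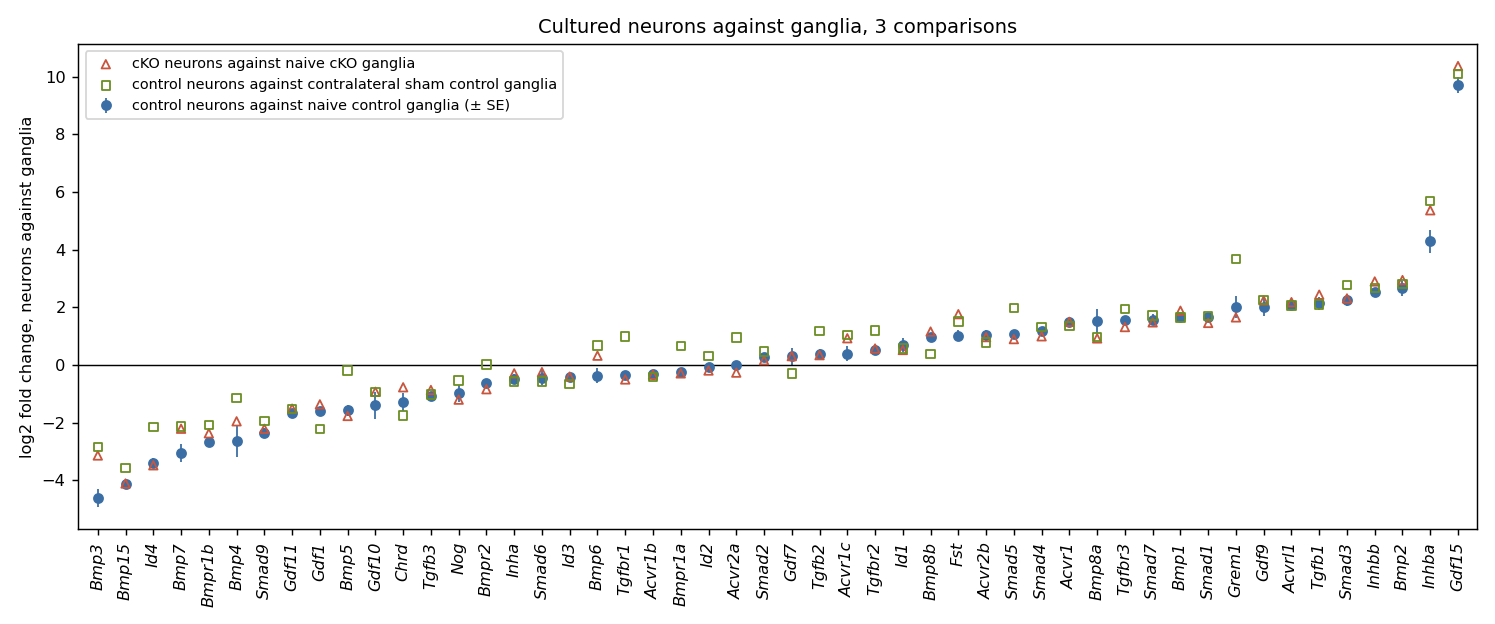
Log2 fold change of cultured neurons against ganglia for 50 of the tested genes in 3 comparisons: control neurons against naive control ganglia (blue, ± SE), cKO neurons against naive cKO ganglia (red triangles) and control neurons against the contralateral ganglia of sham control mice (green squares). *Bmpr1a* and *Tgfbr1* change sign with the ganglia used, and the points of *Gdf15*, *Bmp3* and *Bmp15* rest on low counts in 1 of the groups.

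Setting cKO neurons against naive cKO ganglia kept the call of 43 of the 45 genes (95.6%), with *Inha* among those not called, and of 95.9% of all genes called in control mice. Called in that fit were 86.5% of the 52 signalling genes tested and 83.3% of all genes tested. When the control neurons were compared with contralateral ganglia of the sham control mice, which are in the same table but male, 36 of the 45 kept their call (80%), beside 63.5% of all genes called against naive ganglia. Called in that fit were 78.8% of the 52 signalling genes tested and 64.6% of all genes tested. Genes then not called included *Bmp5*, *Bmp8a*, *Bmpr2*, *Gdf10*, *Id1* and *Nog*, and *Bmpr1a* (-0.23 against naive, 0.66 against sham ganglia) and *Tgfbr1* (-0.36 and 0.99) were called in the opposite direction. These 2 comparisons were added after the data had been seen. *Inhba*, *Inhbb*, *Smad1* and *Smad3* were called higher and *Smad9* and *Id4* lower in all 3, of which the first and the third share the control neurons. The size depended on the ganglia used. Against the sham ganglia the log2 fold change was 5.69 for *Inhba*, larger than against naive ganglia, and -2.16 for *Id4*, a smaller fall.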

How the data were processed

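The authors deposited whole-number counts per gene in 2 tables (12 libraries of naive and injured ganglia, and 14 of neurons and sham ganglia), with matching tables of FPKM. Per the submitters' processing notes, Trim Galore, HISAT2, featureCounts and mm10 were used. Versions, filters and the strand setting are not given in the sources used here. Per the labels' protocols, libraries were made with TruSeq Stranded mRNA. The deposited FPKM divide by the gene's span with introns (100.0% of genes within 0.1% of the GENCODE M21 span) and were not used for levels. Symbols were matched for 54349 of 55401 genes (98.1%).

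Printed CPM use TMM factors over all 26 libraries. Deposited counts were tested with edgeR 4.0.16 in R 4.3.3 (quasi-likelihood F test), with filterByExpr (minimum count 10, minimum total 15), TMM, 1 mean per group and no covariate, two-sided, at a Benjamini-Hochberg adjusted p of 0.05 over all genes tested (21261 in naive and injured ganglia, 23295 in neurons, 22160 in sham ganglia, 21342 for culture). The spread was pooled over the groups of a fit. The SE is the log2 fold change over the square root of F. The test was also run on simulated counts. Their spread between replicates was set below that of the neuron, sham and culture libraries, so the check cannot vouch for those fits. Replicates of a group differed beyond counting noise (chi-square per degree of freedom 3.32 to 39.9), so none is a copy. Same-numbered libraries did not deviate together throughout (correlations -0.600 to 0.553 in naive and injured ganglia, 0.0801 to 0.405 in neurons), so numbers pair only the 2 sides of a sham mouse (-0.240 in cKO, 0.301 in control mice). Replicates are separate mice, per the design text, for naive and injured ganglia. For the neurons the library names carry a mouse number each, but the design text does not say that cultures came from separate mice. If they did not, p-values measure only the spread between these samples.

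Some genes are not reported here by name. The genes, lists and motifs were chosen with earlier results of these data known. Every gene the symbol rule finds may be named; values per library are given for those called after crush and, for culture, for up to 8 with the smallest p in each direction (no test is given for *Gdf15*, *Bmp3* and *Bmp15*, under the filter's level in libraries of 1 group); *Inhba*, *Bmp2*, *Fst* and other culture genes beyond these were named after their values were seen. For other comparisons, up to 8 in each direction were named by p. Alternatives were DESeq2 1.42.0, RLE factors, other filters, a looser threshold of 0.1, sex as a covariate, fits on the compared libraries alone, a replicate block and leaving out each replicate. Added after seeing the data were TMM over all 26 libraries and, for culture, cKO libraries or sham control ganglia.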

Additional observations from a re-analysis of the deposited data

Results flagged for a closer look

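Among 555 pairs of genotype effects in different tissues or sides, or of crush effects in the 2 genotypes, 9 pairs, all of genotype effects, had every cKO library on 1 side of the controls in the first setting and on the other side in the second. The differences were not tested. As cKO minus control log2 fold changes, *Bmp8b* was at -0.174 in naive ganglia against 0.113 on the sham side and 0.0419 on the opposite side. *Gdf11* was at 0.156 in neurons against -0.132 on the sham side and -0.102 on the opposite side. Against the side opposite sham, neurons differed in sign for *Acvr1* (0.103 and -0.18), *Acvr1c* (0.662 and -0.194) and *Gdf1* (0.248 and -0.194). Between the sham side and the opposite side, *Acvr1c* (0.949 and -0.194) and *Acvrl1* (0.155 and -0.217) did so. With 2 mice a group, separation of this kind is common: 35.8% of all genes did not overlap between genotypes on the sham side and 38.3% on the opposite side.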

How the results depend on the processing

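Under the alternatives tried, called genes changed direction only in culture and only against the contralateral sham ganglia, where 4 of 45 did so, *Bmpr1a* and *Tgfbr1* among them with an opposite call. The number of these genes called after crush was 12 to 16 in control and 13 to 15 in cKO mice with a replicate left out, and 7 in cKO mice with transcript sex as a covariate, where sex and crush are partly confounded. For culture it was 41 to 44 with a replicate left out. In the genotype comparisons and the interaction it was 0 to 0 with a replicate left out, and 1 (*Gdf10*, 0.93, adjusted p = 0.026) on the sham side without a filter. For the sham side effect it was 0 to 1 with a replicate left out, 1 by DESeq2 and 1 without a filter, each time *Fst*. With a replicate block, 14 genes were called after crush in control (without *Tgfb3*, adjusted p = 0.064), 16 in cKO mice, 44 in culture and 0 elsewhere; the block changed no other call after crush. Over all genes, calls after crush ranged from 3116 to 6083 in control and 1414 to 5252 in cKO mice. Genotype calls ranged up to 3 in naive and 15 in injured ganglia, 163 in neurons (DESeq2, against 0 by edgeR), 626 on the sham side (no filter, against 1), 59 on the opposite side (no filter, against 0) and 8 for the interaction, and the sham side effect up to 381 (no filter, against 1). The causes were not tested. Depth limits *Acvr1c*, *Gdf3*, *Gdf15* in ganglia and the other genes below 1 CPM.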
